A study of Mus musculus with 2 samples.

Results

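Solute carriers are membrane proteins that move ions, metals, sugars, amino acids, nucleosides and lipids across the plasma membrane and the membranes of organelles. The genes described here carry the numbers 26 and above in this nomenclature. They include sulfate and other anion exchangers, nucleoside transporters, the ZnT and ZIP families of zinc transporters, copper and magnesium transporters, carriers of sugar nucleotides into the Golgi, amino acid transporters and ferroportin, the iron exporter. In erythroid cells they matter because hemoglobin production draws on iron, heme precursors and amino acids, and because the level of zinc in the cell is set by ZIP proteins, which bring zinc into the cytosol, and ZnT proteins, which take it out.

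The members were all probe sets whose single gene symbol in the platform annotation had the form Slc, a number of 26 or above, the letter a and a number. There were 191 such probe sets of 45101 on the array, for 99 of the 18193 genes with a probe set of their own, and 50 of these genes had more than 1 probe set. The form leaves out subfamilies with other letters, such as those of SLC35 after the A subfamily. It includes Slc36a1os, a transcript named for its position opposite Slc36a1 and not itself a carrier. A further probe set, shared by Slc28a2 and Slc28a2b, named several genes and was not a member.

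The estradiol group was G1E cells expressing ER-GATA-1(V205G) after 24 h with 1 µM estradiol, and the untreated group was the same kind of cells before estradiol, at 0 h. G1E is a mouse erythroid progenitor line without GATA-1, so both groups lacked the cell's own GATA-1 and both carried the fusion of an estrogen receptor domain to a GATA-1 mutant that is defective in binding the cofactor FOG-1. Each group had 1 array, and a comparison of the groups therefore has no replicate check and no p-value. Estradiol itself, the activated mutant and time in culture cannot be told apart. Nor can a higher transcript level per cell be told from a larger share of cells that hold the transcript.

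The values are scaled signal intensities from short-oligonucleotide arrays, where the signal of 1 probe set cannot be set against that of another. A probe set counted as measured where both arrays reached a floor of 95.2, the 50th percentile of all signals. Its ratio is the log2 of the estradiol signal over the untreated signal, and a gene takes the values of its brightest probe set. As a guide to probe noise, probe sets of the same gene had log2 ratios with a pooled SD of 0.25 over 12514 probe sets of 4586 genes. The SD was 0.30, 0.25 and 0.20 for genes in the lowest, middle and highest tertile by signal, and it does not cover differences between cultures. Of 45037 probe sets that were not array controls, 50.9% reached the floor with estradiol and 49.2% untreated.

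Of the 8 erythroid markers on the array, 7 were above the floor on both arrays. Klf1 read 6997 with estradiol and 4554 untreated, Rhag 6695 and 6257, Tfrc 10048 and 9175, and Epor 2295 and 2516. Alas2, the erythroid enzyme of heme synthesis, read 3430 with estradiol and 283 untreated (12.1-fold higher), and Slc4a1 769 and 422. Of the globin genes, Hba-a1 read 136 with estradiol and 97.3, close to the floor, untreated, and Hbb-bh1 read 589 with estradiol and 26.7, below the floor, untreated. Marker values also come only from probe sets that name 1 gene. Any probe set shared by several globin genes is therefore left out, and these readings do not give the level of globin transcripts as a whole. The summed signal of the 8 markers was 30960 with estradiol and 23331 untreated. Of the 7 measured ones, 3 were at least 1.5-fold higher (42.9%, against 7.11% of all measured genes), namely Klf1, Alas2 and Slc4a1. Rhag, Tfrc and Epor were close to even. Some of the differences below therefore run beside a higher level of some erythroid transcripts. The summed signal of 10 mast cell or basophil markers was 11838 and 15911, with Mcpt4 and Mcpt8 below the floor on both arrays. Among these markers Tpsab1 read 3418 with estradiol and 140 untreated (24.4-fold higher), Cpa3 1146 and 6616 (5.77-fold lower) and Ms4a2 791 and 2093 (2.65-fold lower). Hdc read 152 with estradiol and 3.80, below the floor, untreated. Kit, the largest part of this sum on both arrays, read 5948 with estradiol and 6661 untreated, and Cma1 210 and 184. Tpsb2 reached the floor only with estradiol and Fcer1a only untreated. These markers thus had no shared direction. Lymphoid markers summed to 277 and 200, with Cd3e, Cd79a and Ptprc below the floor on both arrays and Il7r at 186 with estradiol and 62.8, below the floor, untreated, at least 1.96-fold higher. Neutrophil or monocyte markers summed to 621 and 561, megakaryocyte markers to 749 and 699, and fibroblast or endothelial markers to 563 and 513. All these sums are set mostly by the brightest probe sets and include signals below the floor, so they are only a rough guide. What part changes in cell makeup had in the carriers' ratios was not tested.

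Of the 99 genes, 67 were measured on both arrays (67.7%, against 56.3% of all 18193 genes), 4 reached the floor on 1 array and 28 on neither. Among the 67, 3 were at least 2-fold higher with estradiol (4.48%, against 2.04% of all 10240 measured genes) and 1 was at least 2-fold lower (1.49%, against 1.10%). The genes past 2-fold were Slc46a3, Slc66a1 and Slc45a2 upward and Slc39a10 downward. At 1.5-fold 10 members were higher (14.9%, against 7.11% of all measured genes) and 3 were lower (4.48%, against 4.85%). Beyond 2 SD of probe noise, 10 members were higher (14.9%, against 8.62% of all measured genes) and 5 were lower (7.46%, against 7.23%). The median log2 ratio was 0.09 over the members, with 38 above 0 (56.7%, against 50.1% of all measured genes) and 29 below, and it was 0.00 over all measured genes. The SD of the ratios was 0.48 over the members and 0.42 over all measured genes.

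**Figure D1:**
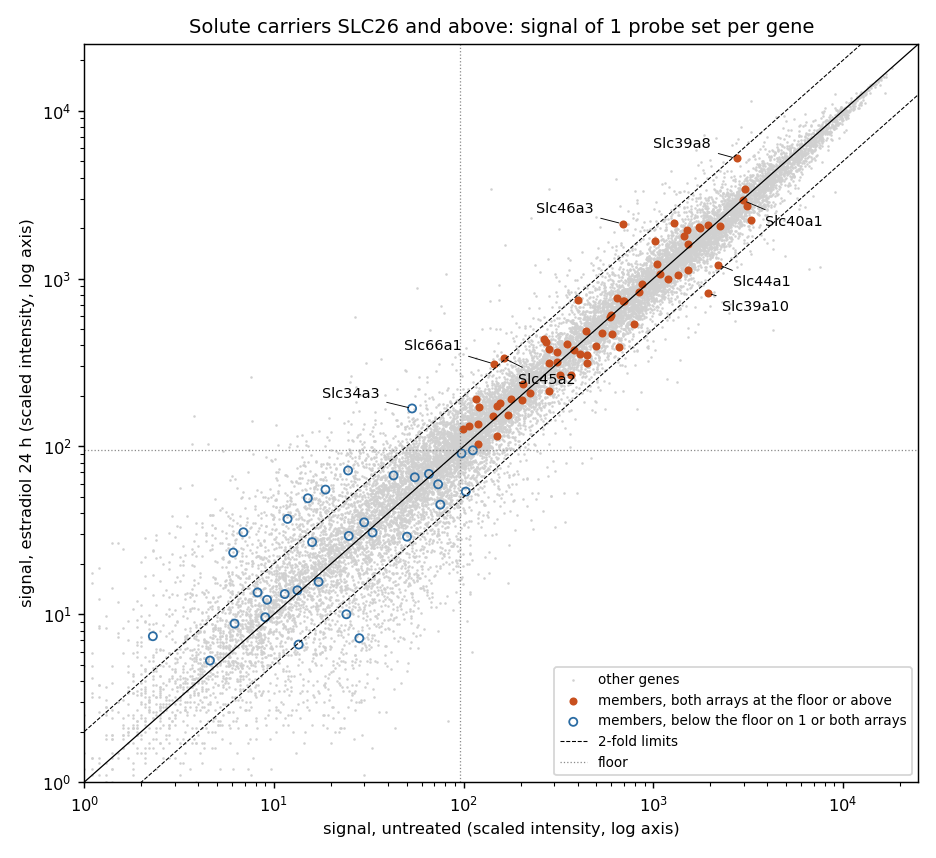
Signal of the brightest probe set of each gene with estradiol (vertical axis) against untreated (horizontal axis), both on log scales, for member genes and, in grey, all other genes. Of the members, 3 lie on or above the upper 2-fold line and 1 below the lower one among those at or above the floor of 95.2 on both arrays.

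These counts depend on how the arrays are scaled. With a common median in place of a common trimmed mean, the middle of all measured genes shifted to a log2 ratio of -0.11 and 30 members lay above 0. The share of all measured genes above 0 was not counted in that scaling. The 30 therefore do not show whether the members' excess over all genes changed. Calls at 2-fold over all genes were 64.9% upward in the main scaling and 49.8% upward with the common median. Slc46a3 and Slc39a10 passed 2-fold under each of the 4 other scalings. Slc66a1 ran from 0.99 to 1.10 over the alternatives that gave it a value, and Slc45a2 kept 2-fold only with the signals as deposited among the other scalings.

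The windows printed here are the 250 bases before annotated starts of Slc46a3, Slc66a1 and Slc39a10, which lay past 2-fold, and of Slc39a8 and Slc30a10, metal transporters that were short of 2-fold on their brightest probe sets and were chosen after their values were seen. Slc45a2, the other gene past 2-fold, is not among them. They are shown because the fusion carries the DNA-binding part of GATA-1, a factor that recognises GATA sequences. Sequences are from RefSeq, build GRCm38.p6, on the gene's strand, and capitals mark GATAA or its reverse complement TTATC.
Slc46a3, chr5:147894816-147895065, minus strand: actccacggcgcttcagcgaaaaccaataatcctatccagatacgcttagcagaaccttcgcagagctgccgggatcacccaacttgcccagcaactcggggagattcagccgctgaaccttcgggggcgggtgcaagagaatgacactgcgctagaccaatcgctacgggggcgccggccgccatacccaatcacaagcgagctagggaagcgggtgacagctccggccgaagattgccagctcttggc
Slc66a1, chr4:139310709-139310958, minus strand: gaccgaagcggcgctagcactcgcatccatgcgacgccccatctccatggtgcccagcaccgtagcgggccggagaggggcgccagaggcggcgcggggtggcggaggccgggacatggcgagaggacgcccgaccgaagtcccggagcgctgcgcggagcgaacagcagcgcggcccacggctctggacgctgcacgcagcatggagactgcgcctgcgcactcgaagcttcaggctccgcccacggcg
Slc39a10, chr1:46925777-46926026, minus strand: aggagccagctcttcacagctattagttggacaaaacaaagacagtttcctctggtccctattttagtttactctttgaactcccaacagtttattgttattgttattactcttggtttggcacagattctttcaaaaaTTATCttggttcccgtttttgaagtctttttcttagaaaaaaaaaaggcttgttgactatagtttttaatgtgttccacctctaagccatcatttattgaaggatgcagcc
Slc39a10, chr1:46853619-46853868, minus strand: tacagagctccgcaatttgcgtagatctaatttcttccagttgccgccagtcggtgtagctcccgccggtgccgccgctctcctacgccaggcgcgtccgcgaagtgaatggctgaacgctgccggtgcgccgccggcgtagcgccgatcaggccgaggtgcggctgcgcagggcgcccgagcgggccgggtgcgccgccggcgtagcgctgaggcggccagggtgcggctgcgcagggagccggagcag
Slc39a8, chr3:135825029-135825278, plus strand: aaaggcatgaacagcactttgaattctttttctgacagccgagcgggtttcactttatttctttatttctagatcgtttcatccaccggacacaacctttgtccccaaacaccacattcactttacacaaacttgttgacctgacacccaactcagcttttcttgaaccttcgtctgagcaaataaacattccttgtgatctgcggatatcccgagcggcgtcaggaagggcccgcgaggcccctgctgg
Slc39a8, chr3:135825407-135825656, plus strand: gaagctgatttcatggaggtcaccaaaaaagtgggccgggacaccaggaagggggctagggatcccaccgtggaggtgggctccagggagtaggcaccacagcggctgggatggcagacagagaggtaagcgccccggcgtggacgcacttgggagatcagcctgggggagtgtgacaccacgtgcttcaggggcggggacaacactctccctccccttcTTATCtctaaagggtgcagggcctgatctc
Slc30a10, chr1:185454598-185454847, plus strand: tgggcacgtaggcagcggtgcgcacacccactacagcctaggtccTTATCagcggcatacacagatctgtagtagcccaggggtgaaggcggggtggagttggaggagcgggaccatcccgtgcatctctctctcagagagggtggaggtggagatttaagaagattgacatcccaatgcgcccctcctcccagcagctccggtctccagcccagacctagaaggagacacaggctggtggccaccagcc

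The 5 letters GATAA, searched on both strands, occurred once in 1 of the windows of Slc39a10, from 111 to 107 bases before the start. They occurred once in the second window of Slc39a8, from 30 to 26 bases before the start, and once in that of Slc30a10, its nearest base 201 bases before. The windows of Slc46a3 and Slc66a1 did not hold them. The table had windows for 78 of the 99 genes, 102 windows in all, of which 20 (19.6%) held the letters, against 7418 of 32851 (22.6%) of all windows. Windows of the members were richer in G and C, with a median of 59.8% against 52.4% for all windows. The letters are mostly A and T, so these shares are not directly comparable. A match is a description of these letters and not a binding site.

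The largest ratio was that of Slc46a3, which encodes a transporter of the lysosomal membrane related to the proton-coupled folate transporter. Its only probe set read 2120 with estradiol and 688 untreated, 3.08-fold higher (log2 ratio 1.62), which placed it 46th from the top of the 10240 measured genes. The relatives on the array, Slc46a1, the folate transporter itself, and Slc46a2 were below the floor on both arrays, as was the riboflavin transporter gene Slc52a3. Slc66a1, which encodes an exporter of lysine and arginine from lysosomes, read 310 with estradiol and 145 untreated on 1 probe set, 2.14-fold higher (log2 ratio 1.10). For genes of their signal, 2 SD of probe noise come to 0.40 for Slc46a3 and 0.60 for Slc66a1, and both ratios are larger. The signals of Slc66a1 were low, however, and both fell below a floor at the 70th percentile, which left no value. With a common median and with loess normalization Slc66a1 was short of 2-fold, while Slc46a3 stayed past it. Neither gene has a further probe set to compare.

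Slc45a2 is known for its role in the melanosome, where it is needed for pigment formation. Its brightest probe set read 335 with estradiol and 163 untreated (2.06-fold higher, log2 ratio 1.04) and the other read 183 and 107 (log2 ratio 0.78). Both were higher, but the signals were low. When the floor was raised to the 70th percentile, the untreated signal fell below it and a bound of 0.07 was left. The other genes of its group did not go with it. Slc45a4 read 214 with estradiol and 282 untreated (log2 ratio -0.40), Slc50a1, the mammalian relative of the plant SWEET sugar transporters, 115 and 150 (-0.38), and Slc45a1 474 and 540 (-0.19). Slc45a3 was below the floor.

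The zinc importer family SLC39 had the widest range of ratios, with 1 gene near 2-fold up and 1 past 2-fold down. Slc39a10, which encodes the plasma membrane zinc importer ZIP10, read 818 with estradiol and 1941 untreated, 2.37-fold lower (log2 ratio -1.25). Its second probe set read 421 and 1169 (log2 ratio -1.48), so both probe sets were past 2-fold. Slc39a8, which encodes ZIP8, an importer of zinc, manganese and iron, read 5196 with estradiol and 2746 untreated (1.89-fold higher, log2 ratio 0.92). Its second probe set read 2550 and 1271 (log2 ratio 1.00). The probe sets of each gene differed from each other by far less than the genes did.

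Other ZIP genes mostly read lower or close to even. Slc39a11 read 391 with estradiol and 663 untreated (log2 ratio -0.76) on 1 probe set, and Slc39a1 read 313 and 445 (-0.51). Slc39a6 read 537 and 795 (-0.57) on its brightest probe set, but 340 and 285 (0.25) on another. Slc39a9 was split in the same way, with -0.26 and 0.48, and Slc39a3 with 0.22 and -0.49, so these genes have no clear direction here. Slc39a7, which releases zinc from the secretory pathway, had 0.07, and Slc39a13 0.16. Slc39a14, a zinc and iron importer, read 368 with estradiol and 311 untreated (0.24). A dimmer Slc39a14 probe set read 145 with estradiol and 38.6, below the floor, untreated, which makes it at least 1.52-fold higher. The intestinal importer gene Slc39a4, with Slc39a2, Slc39a5 and Slc39a12, was below the floor on both arrays. In all, 10 of 14 genes were measured, 5 above 0 and 5 below, with a median log2 ratio of -0.09 and an SD of 0.62.

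Genes of the SLC30 family, which moves zinc out of the cytosol, differed less. Of 10 genes 8 were measured, with a median log2 ratio of 0.09 and an SD of 0.31. The member that stood out was Slc30a10, whose product exports manganese. It read 2147 with estradiol and 1285 untreated (log2 ratio 0.74), and its other probe set read 1775 and 912 (0.96). Slc30a1, the zinc exporter of the plasma membrane, read 1059 and 1089 (-0.04) on its brightest probe set but 668 and 416 (0.68) on the other, a gap of 0.72 between probe sets of 1 gene. Its direction is therefore not settled by these arrays.

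The rest of the family stayed within 1.5-fold. Slc30a5, Slc30a6 and Slc30a7, which fill the early secretory pathway with zinc, had log2 ratios of 0.10, -0.03 and -0.34, Slc30a5 with signals of 2087 with estradiol and 1947 untreated. Slc30a9 had 0.31, Slc30a2 0.11 and Slc30a3 0.09. Slc30a4 and Slc30a8 were below the floor. The zinc-binding metallothionein genes, which respond to zinc through the factor MTF1, were close to even. Mt1 read 10621 with estradiol and 11320 untreated (log2 ratio -0.09), Mt2 8360 and 9434 (-0.17), and Mtf1 658 and 616 (0.09). None of the 4 measured genes of the zinc partner list was past 1.5-fold, against 7.11% of all measured genes upward and 4.85% downward. With so few genes, that count says little.

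**Figure D2:**
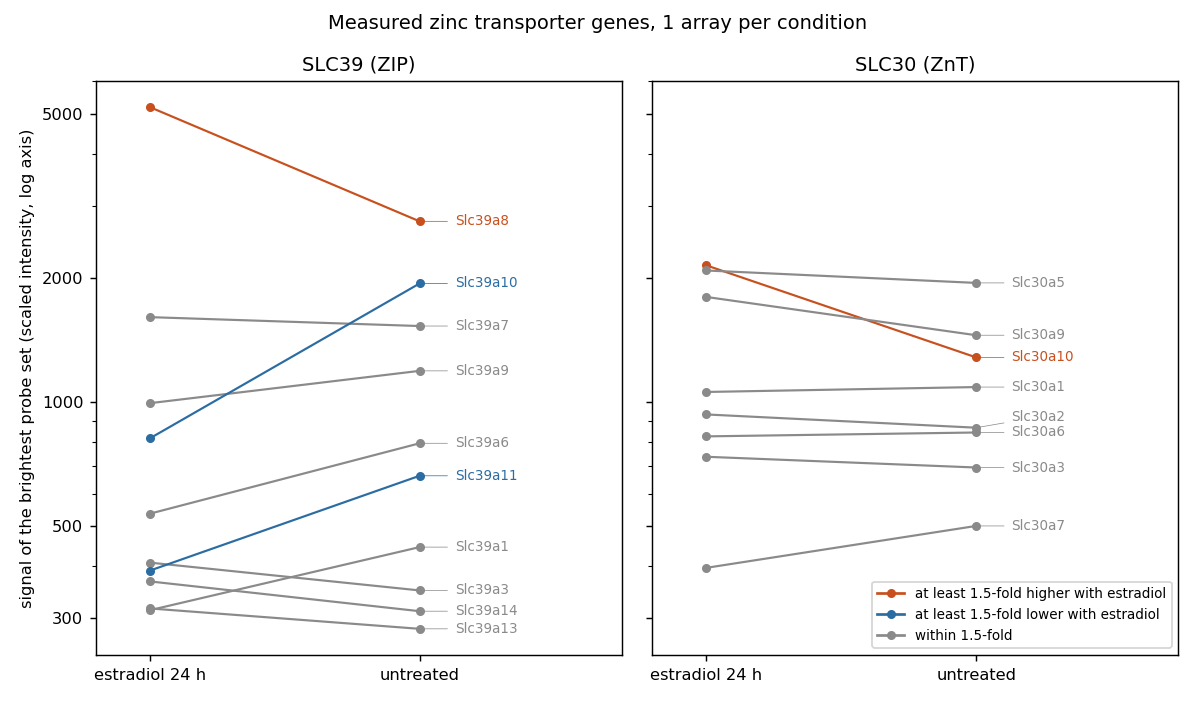
Signal on a log axis of the brightest probe set of each measured SLC39 gene (left panel) and SLC30 gene (right panel), with estradiol at the left and untreated at the right of each line, 1 array each. Slc39a8 and Slc30a10 were at least 1.5-fold higher with estradiol, Slc39a10 and Slc39a11 at least 1.5-fold lower, and the other lines are within 1.5-fold.

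Ferroportin and the heme carrier had high signals in both groups. Slc40a1, which encodes ferroportin, the exporter of iron from cells, read 2920 with estradiol and 2983 untreated (log2 ratio -0.03), and its second probe set read 1813 and 1932 (-0.09). Both differ by less than the SD between probe sets. Slc48a1, which encodes HRG1, a carrier of heme out of endosomes and lysosomes, read 2230 with estradiol and 3267 untreated (log2 ratio -0.55) and 1995 and 3233 (-0.70) on its other probe set. Both were lower, by 1.47-fold and 1.62-fold.

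Of 16 measured genes of iron and heme handling beside them, 4 were at least 1.5-fold higher (25%, against 7.11% of all measured genes). At least 1.5-fold lower was 1 (6.25%, against 4.85%). None was past 2-fold (against 2.04% of all measured genes upward and 1.10% downward), and the median was 0.03. The higher ones were Flvcr1, a heme exporter (log2 ratio 0.63), Steap3, the endosomal ferrireductase (0.63), Mcoln1, a lysosomal cation channel (0.70), and Slc25a37, the mitochondrial iron importer (0.67). The lower one was Tfr2, the second transferrin receptor (-0.97).

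Slc31a1, which encodes the copper importer CTR1, was higher on both probe sets. They read 1679 with estradiol and 1020 untreated (log2 ratio 0.72), and 1249 and 787 (0.67). Slc31a2, its relative of the endosome and lysosome, read 136 and 119 (0.19). Of the 9 copper-handling genes beside them, all measured, Atp7b, a copper-exporting ATPase, was 2.13-fold higher, with signals of 1960 with estradiol and 922 untreated, and was the 1 past 2-fold upward (11.1%, against 2.04% of all measured genes). Sco2, a copper chaperone of cytochrome c oxidase, was lower with a log2 ratio of -0.61, and Atp7a (0.07), Ccs (0.18), Atox1 (-0.04) and Cox17 (-0.11) were close to even. The list median was -0.04.

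Genes of the SLC36, SLC38 and SLC43 families, mostly amino acid carriers, read higher more often than lower, by small amounts. The 17 genes include the transcript Slc36a1os and Slc43a3, which are not amino acid carriers. Of the 17, 13 were measured, 10 of them above 0 (76.9%, against 50.1% of all measured genes) and 3 below, with a median log2 ratio of 0.21. With arrays scaled to a common median, 8 of the 13 lay above 0, and with the floor at the 70th percentile 4 of 7 measured ones did. The median of all measured genes was itself -0.11 and -0.03 in these settings, and their share above 0 was not counted. At least 1.5-fold higher were 2 of them (15.4%, against 7.11%). Slc36a1, a proton-coupled amino acid exporter of lysosomes, read 436 with estradiol and 267 untreated (log2 ratio 0.71). Slc43a2, a transporter of large neutral amino acids, read 192 and 116 (0.73). Its other probe set above the floor read 227 with estradiol and 67.5, below the floor, untreated, which makes it at least 2.39-fold higher. Slc43a1, of the same family, read 172 and 121 (0.51), and Slc43a3, which carries purine nucleobases, 1937 and 1498 (0.37).

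The glutamine and alanine carriers differed little. Slc38a2 read 2705 with estradiol and 3119 untreated (log2 ratio -0.21) on its brightest probe set and 0.01 and 0.09 on the others, and Slc38a1 read 376 and 380 (-0.02). Slc38a9, the arginine sensor of the lysosome, read 588 and 589, with ratios from -0.31 to 0.32 over 6 probe sets and a bound of 0.04 on a further one that was below the floor untreated. Slc38a10 read 2017 and 1740 (0.21), and its 6 measured probe sets all lay above 0, from 0.02 to 0.32. Slc38a7 had 0.13, Slc38a6 0.06, Slc38a3 0.22, Slc36a2 0.30 and Slc36a3 0.10. Slc38a4, Slc38a5, Slc36a4 and the transcript Slc36a1os were below the floor on both arrays.

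Among 11 measured genes of amino acid transport and its stress response, 2 passed 2-fold upward (18.2%, against 2.04% of all measured genes) and none downward (against 1.10%), with a median of 0.16. Slc7a6, a cationic amino acid exchanger, read 1332 with estradiol and 357 untreated (3.73-fold higher), and Ddit3, a stress-response factor, was 4.20-fold higher. Slc6a9, the glycine transporter that feeds heme synthesis, read 1082 and 617 (log2 ratio 0.81), Slc7a5 had 0.42 and Slc7a8 -0.52. Asns, a target of the same stress response, was at -0.04.

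No measured nucleoside transporter differed by more than 2 SD of probe noise. Of all measured genes, 8.62% lay beyond it upward and 7.23% downward. Slc29a1, which encodes the equilibrative transporter ENT1, read 3428 with estradiol and 3054 untreated (log2 ratio 0.17) on its only probe set. Slc29a4, a relative that carries monoamines, read 1219 and 1051 (0.21), while its other probe set was below the floor, and Slc29a3, of lysosomes, read 190 and 204 (-0.10). Slc29a2 read 90.8 with estradiol and 97.5 untreated, so close to the floor that no change can be read. Slc28a3, a concentrative transporter, read 53.8, below the floor, with estradiol and 103 untreated, at least 1.08-fold lower. Of 13 measured genes of nucleoside salvage 3 lay above 0 (23.1%, against 50.1% of all measured genes) and 10 below, with a median of -0.31. At least 1.5-fold lower were 2 (15.4%, against 4.85%), and 1 of these was past 2-fold (7.69%, against 1.10%). Upp1, uridine phosphorylase, read 275 with estradiol and 728 untreated (2.65-fold lower), Tk1, thymidine kinase, had a log2 ratio of -0.88, and Adk, adenosine kinase, was the highest at 0.48.

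Sulfate carriers of the SLC26 family were split. Slc26a2, the main sulfate transporter of many tissues, read 742 with estradiol and 399 untreated (1.86-fold higher, log2 ratio 0.89). Its other probe sets read 532 and 345 (0.63) and 268 and 177 (0.59), so all 3 were higher. Slc26a1, another sulfate transporter, read 350 and 448 (-0.36), with 0.17 on its other probe set. The genes of the enzymes that turn sulfate into the sulfate donor read lower. Papss2 read 452 with estradiol and 1531 untreated (3.39-fold lower) and Papss1 1296 and 1826 (log2 ratio -0.49). The exchanger genes Slc26a4 (-0.11) and Slc26a6 (0.22) were close to even, and Slc26a8 had no clear direction. Its brightest probe set read 94.8, below the floor, with estradiol and 112 untreated (a bound of -0.23), while its other one read 129 with estradiol and 53.8, below the floor, untreated (a bound of 0.43). The other 5 genes of the family, Slc26a3, Slc26a5, Slc26a7, Slc26a10 and Slc26a11, were below the floor.

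Carriers of sugar nucleotides into the Golgi differed by less than 1.5-fold on their brightest probe sets, as did 88.0% of all measured genes. Slc35a1, which carries the sialic acid donor, read 1054 with estradiol and 1358 untreated (log2 ratio -0.37) and 934 and 1321 (-0.50) on its other probe set. Slc35a2, which carries the galactose donor, read 268 and 366 (-0.45), with a range from -0.81 to 0.07 over 5 probe sets. Slc35a3, which carries the N-acetylglucosamine donor, read 1993 and 1758 (0.18), and all 4 of its probe sets lay between 0.06 and 0.18. Slc35a4 read 2066 and 2242 (-0.12), and Slc35a5 had 0.02 with a range from -0.31 to 0.60. Among 16 measured genes of the synthesis of sugar nucleotides and of the sulfate donor, Papss1 and Papss2 included, the median was -0.14, and 1 was past 1.5-fold upward (6.25%, against 7.11% of all measured genes) and 2 downward (12.5%, against 4.85%). Cmas, which activates sialic acid, was higher (log2 ratio 0.71), while Uap1 (-0.73) and Papss2 were lower.

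The choline-like transporters did not share a direction. Slc44a1, which encodes the choline transporter CTL1, read 1210 with estradiol and 2206 untreated (1.82-fold lower, log2 ratio -0.87), and its other measured probe set read 136 and 170 (-0.32). Slc44a2 read 417 and 272 (0.62) on its brightest probe set, but 300 and 324 (-0.11) and 160 and 155 (0.05) on the others, so its ratio rests on 1 probe set of 3. Slc44a3 and Slc44a4 were below the floor. Among 11 measured choline and lipid genes 3 lay above 0 (27.3%, against 50.1% of all measured genes) and 8 below, and 1 was past 2-fold upward (9.09%, against 2.04%). Chpt1, the cholinephosphotransferase, read 1455 with estradiol and 550 untreated (2.65-fold higher), choline kinase Chka was at -0.52, and Acsl3, an acyl-CoA synthetase, at -0.90.

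**Figure D3:**
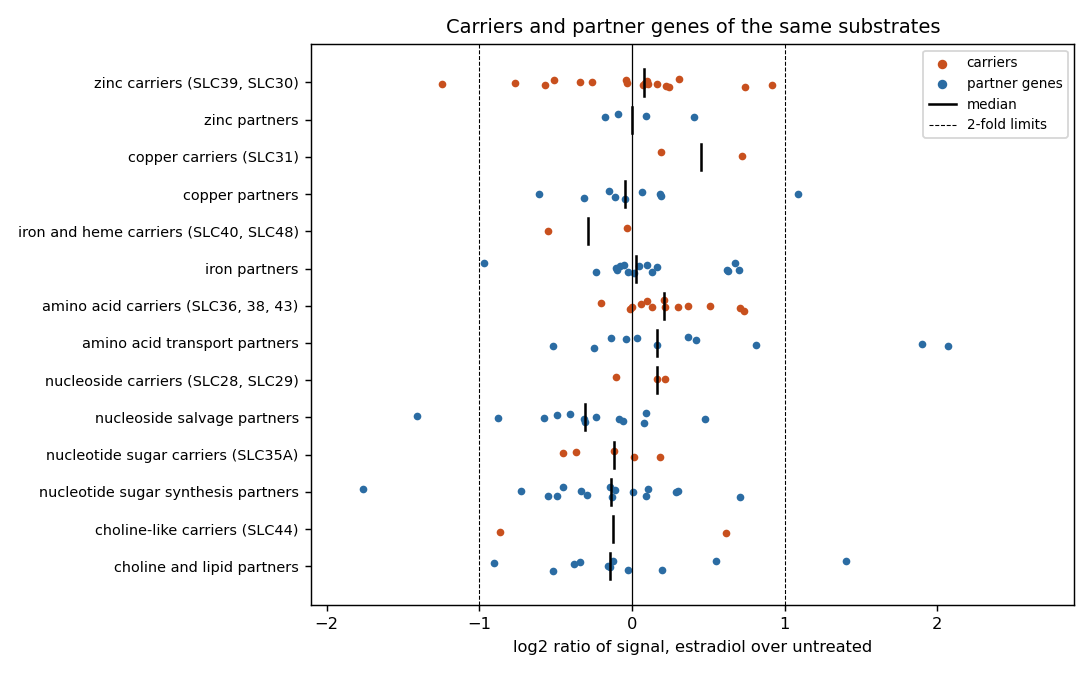
Log2 ratios of estradiol over untreated for measured carrier genes and, beneath each group, for listed partner genes, with a black bar at each median and dashed lines at 2-fold. The lists hold genes that handle related substrates and also some regulators and stress-response factors, and the nucleotide sugar list includes Papss1 and Papss2 of the sulfate donor. Of the groups drawn, only the SLC39 and SLC30 row has a carrier past 2-fold, Slc39a10, while partner genes past 2-fold are Atp7b, Slc7a6, Ddit3 and Chpt1 upward and Upp1 and Papss2 downward.

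The remaining families held few measured genes, and none of these was past 1.5-fold on its brightest probe set apart from Slc66a1. All 3 probe sets of the magnesium transporter relative Slc41a3 were lower, with signals of 1131 with estradiol and 1519 untreated on the brightest and log2 ratios from -0.53 to -0.37. The magnesium exporter gene Slc41a1 read 319 and 309 (0.05). Slc37a4, which carries glucose 6-phosphate into the endoplasmic reticulum, read 469 and 606 (log2 ratio -0.37), and Slc37a3 had -0.20. The fatty acid transport protein gene Slc27a4 read 267 and 322 (-0.27), and Slc27a5, close to the floor, 128 and 99.7 (0.36). Slc27a1 read 153 and 171 (-0.16) on its brightest probe set, but another read 121 with estradiol and 82.0, below the floor, untreated, at least 1.27-fold higher. Slc33a1, which carries acetyl-CoA into the endoplasmic reticulum, read 762 and 645 (0.24).

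The phosphate carrier genes had low signals. Slc34a2 read 236 with estradiol and 207 untreated and Slc34a1 104 and 119, and Slc34a3, the kidney phosphate carrier, read 168 with estradiol and 53.5, below the floor, untreated, at least 1.77-fold higher. Slc49a4, a lysosomal carrier, read 379 and 280 (log2 ratio 0.44), and Slc66a2 had 0.11 and -0.25 on its measured probe sets, with a bound of -0.27 on a further one that was below the floor with estradiol. Slc47a1, an exporter of organic cations, and Slc32a1, the carrier that loads inhibitory neurotransmitters into vesicles, were below the floor on both arrays, as were Slc27a2, Slc27a3, Slc37a1, Slc37a2 and Slc41a2.

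**Figure D4:**
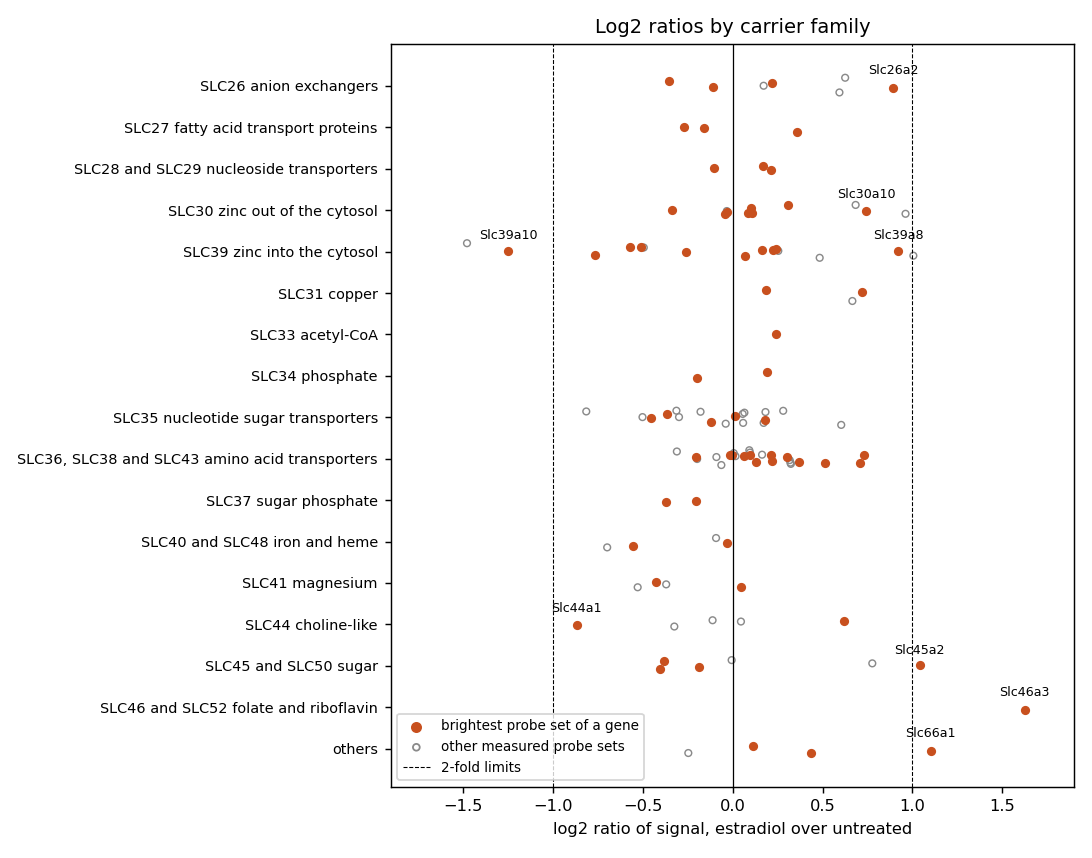
Log2 ratios of estradiol over untreated for each measured probe set, by carrier family, with filled points for the brightest probe set of a gene, open points for its other measured probe sets and dashed lines at 2-fold. Slc46a3, Slc66a1 and Slc45a2 lie past the upper line and Slc39a10 past the lower one, and the open points show where probe sets of 1 gene disagree.

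Agreement between probe sets varied among the members. Of the 27 genes with more than 1 measured probe set, 15 had all of them on the same side of 0 and 12 did not. That share was not counted over all genes. The pooled SD between probe sets of 1 gene was 0.27 over 74 probe sets, against 0.25 over all genes. The widest range, 0.92, was that of Slc35a5. Of the 13 genes at least 1.5-fold higher or lower on the brightest probe set, Slc26a2, Slc30a10, Slc31a1, Slc39a8, Slc39a10, Slc44a1 and Slc45a2 had every measured probe set on the same side of 0, Slc44a2 did not, and Slc36a1, Slc39a11, Slc43a2, Slc46a3 and Slc66a1 had 1 measured probe set. Next to the 2-fold limit, Slc45a2 at 1.04 stood just past it and Slc39a8 at 0.92 just short of it, and on the lower side Slc44a1 at -0.87 was the nearest short of it.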

How the data were processed

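The deposited signal intensities, on a linear scale, were made by the authors with Affymetrix GCOS, per the submitters' processing notes. Version and settings of that software are not given in the sources used here. With 2% cut at each end, the trimmed mean was 500.0 for either array. Detection calls were not used here.

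Signals were scaled to a shared trimmed mean taken over 45037 probe sets, array controls excluded, and the floor, ratios and choice of probe set are as given above. Genes were named by the platform annotation, and all 99 members had an Entrez identifier in the RefSeq table for GRCm38.p6. Fully described members are those past 1.5-fold, the 10 with the highest signal and a fixed set of well-known carriers. Members, lists and rules were chosen with earlier results of these data known. No test across arrays was possible. The steps were tested on simulated data. Alternatives covered scaling, floor, choice of probe set and threshold. Calculations used pandas 2.3.3, numpy 2.4.6 and statsmodels 0.14.6 under Python 3.11.15, with plots from matplotlib 3.10.9.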

Additional observations from a re-analysis of the deposited data

How the results depend on the processing

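No paired analysis was possible because each condition had 1 array. The number of members at least 2-fold higher was 3 of 67 measured in the main setting. It was 1 with a common median, with loess normalization and when the floor was raised to the 70th percentile. With no floor and 16 added to each signal it was 7 of 99. In the main setting it was 10 at a threshold of 1.5-fold and 1 at 3-fold, and the lower count was 3 and 0. With no floor, Slc45a2 (0.97) dropped out and 5 dim genes came in, Slc26a7, Slc34a3, Slc36a4, Slc38a5 and Slc39a4. The higher floor left 40 measured members. The median log2 ratio of the members was -0.026 with a common median, 0.0067 with the higher floor and 0.043 with quantile normalization. Over all genes, 439 of 13461 measured were higher and 288 lower with a floor at the 30th percentile, and 130 and 65 of 7122 at the 70th. These counts were 679 and 512 of 18193 with no floor, and 160 and 161 of 10246 with a common median. With loess normalization they were 197 and 125 of 10240. In the main setting they were 728 and 497 of 10240 at 1.5-fold, and 49 and 21 at 3-fold. Of 252 alternative values of 32 members, 244 stayed within 1 SD between probe sets and 8 moved further. Many of these values could hardly move, so the count says little about how firm the ratios are. Signals as deposited and the lower floor leave a measured ratio nearly or fully unchanged. So does the median over probe sets for a gene with 1 measured probe set. The common median lowers every measured ratio by the same amount, less than 1 SD. Moved values included Slc44a2 from 0.62 to 0.05 and Slc26a2 from 0.89 to 0.63. Under the higher floor, bounds of 0.45 for Slc36a1 (main 0.71) and 0.07 for Slc45a2 (main 1.04) were left. Counted separately, 8 values of 5 members changed sign, all within 0.21 of 0 in the main setting. These members were Slc30a1, Slc30a5, Slc38a2, Slc40a1 and Slc41a1, and only the value of Slc30a1 had also moved. Slc46a3 ran from 1.51 to 1.64 and Slc39a10 from -1.36 to -1.23.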
